A study of Mus musculus with 8 samples.

Results

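The 10 genes described here encode ligands and antagonists of bone morphogenetic protein (BMP) signaling, namely the ligands Bmp2, Bmp3, Bmp4, Bmp5 and Bmp7 and the extracellular binding proteins Nog, Grem1, Chrdl1, Fst and Fstl1. They were found by symbol, 10 of 10, among the 31053 genes listed for each library. Cells of parietal bone from mouse pups 4 to 5 days after birth had been profiled by droplet-based 3′ RNA sequencing of single cells, in which unique molecular identifiers (UMIs) count transcripts, in 4 WT and 4 Het libraries. Het pups carried 1 copy of the G610C allele of Col1a2, a model of osteogenesis imperfecta in which a glycine is replaced in the α2 chain of type I collagen. Both genotypes came from the line B6.129(FVB)-Col1a2tm1Mcbr/J, kept on C57BL/6J. Each library was a pool of cells from up to 5 pups of 1 genotype. Libraries served as replicates, and p-values measure the spread between such pools. WT libraries S1 and S2 and Het libraries S3 and S4 were made with kit version 3, and WT libraries S5 and S6 and Het libraries S7 and S8 with version 3.1. UMIs at the 3′ end of Col1a2 do not read the substitution, so its level checks no label.

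BMPs are secreted dimers of the TGF-β superfamily that bind paired serine/threonine kinase receptors and act through phosphorylated SMAD1, SMAD5 and SMAD9, with the Id genes among their best known targets. Noggin, gremlin and the chordin-like proteins bind BMPs outside the cell and keep them from their receptors, while follistatin binds activins most tightly and some BMPs as well. In bone, BMPs drive commitment to the osteoblast lineage, and BMP3, which is abundant in bone matrix, is known to oppose the osteogenic ligands. In the skull vault, noggin is known for keeping sutures open.

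After removal of cells with fewer than 500 genes or with 10% or more of their UMIs from mitochondria, 46420 cells were left. Those that had 10 or more Col1a1 UMIs, together with 2 or more UMIs of any 2 of Runx2, Sp7 and Ibsp, were the 2671 osteoblasts (OBs). Col1a1 as a percentage of the UMIs of a cell divided them into 379 early OBs (eOBs, under 0.75%), 1217 differentiating OBs (dOBs) and 1075 mature OBs (mOBs, over 3.5%). Other cells with Col2a1 over 1% of UMIs numbered 15370, and 28379 cells were neither. Summed depth per library ran from 204130 to 1296848 UMIs in eOBs, from 467750 to 6304261 in dOBs and from 664702 to 4805858 in mOBs. Pooled over libraries it was lowest in eOBs. Bmp5, Nog, Fst and Grem1 still had fewer UMIs in mOBs (180, 134, 16 and 8) than in eOBs (268, 164, 75 and 22). OB markers not used in the selection (Alpl, Bglap, Dmp1, Ifitm5, Phex and others) were higher in mOBs than in dOBs for 8 of 9, and 10 of 10 tested chondrocyte markers were higher in Col2a1-high cells than in OBs. At least 3 markers of another cell class were detected in 2046 of the 2671 OBs, and 171 OBs had Col2a1 over 1%. Cells with at least 3 haematopoietic markers made up 56.5% of WT library S1 and 46.5% of WT library S2, against 3.21% to 9.75% of the others, and Col2a1-high cells ranged from 2.12% of S1 to 60.4% of S8. Pairs of libraries shared 1 to 24 cell barcodes.

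The tested antagonists and the ligands moved in opposite directions as OBs matured, with Bmp5 as the exception among the ligands. Levels are UMIs of a gene per 1000000 UMIs summed over a class in a library (CPM), and fold changes are from edgeR's quasi-likelihood test with TMM scaling and Benjamini-Hochberg adjusted p-values over all genes tested. From dOBs to mOBs, 8 of 9 tested members were called at an adjusted p under 0.05, 4 higher (Bmp2, Bmp3, Bmp4 and Bmp7) and 4 lower (Nog, Chrdl1, Fst and Fstl1), whereas 24.4% of all 12163 tested genes were called (13.3% higher, 11.1% lower). Grem1 was too low to test. From eOBs to dOBs only Bmp5 was called, as lower, at a background of 13.4% of genes (5.22% higher, 8.21% lower), and from eOBs to mOBs 8 of 9 were called, 3 higher and 5 lower, at a background of 34.5% (16.9% higher, 17.7% lower). Between genotypes, edgeR with all 8 libraries and the filter on low counts called no member in any class.

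**Figure D1:**
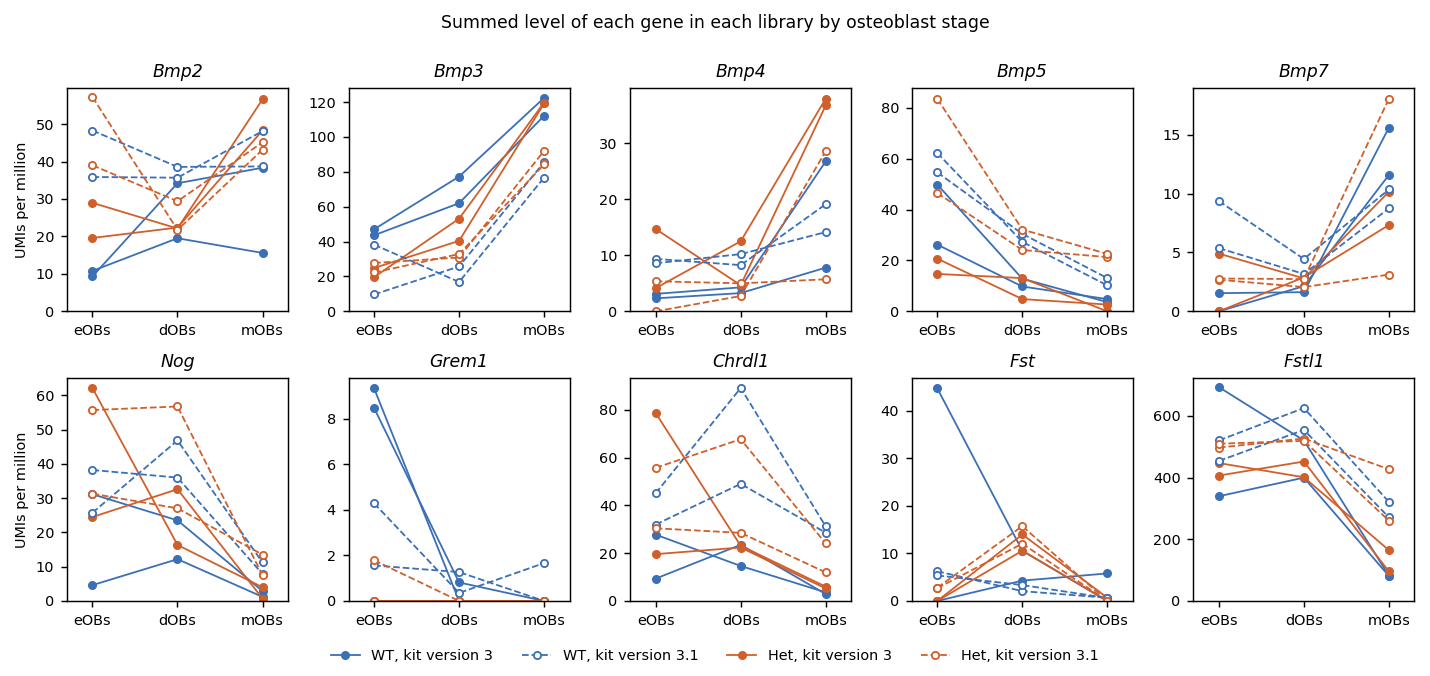
CPM of each of the 10 genes in eOBs, dOBs and mOBs (x axis), with 1 line per library, colored by genotype and with dashed lines and open points for kit version 3.1. Bmp3 rose from dOBs to mOBs in 8 of 8 libraries and Nog fell in 8 of 8, while the single high Fst point in eOBs is WT library S1 at 44.7.

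Bmp3 had the steepest climb in absolute level among the BMPs. Its lowest, median and highest library values were 9.66, 26.3 and 47.0 CPM in eOBs, 16.8, 36.6 and 77.3 in dOBs and 76.7, 102 and 122 in mOBs. Ranges in eOBs and mOBs did not overlap, which held for 4.42% of all genes with at least 10 UMIs, while the top dOB library (WT S1) just passed the bottom mOB library (WT S5). The log2 fold change from dOBs to mOBs was 1.82 ± 0.31 (SE, n = 8 libraries, edgeR adjusted p = 5.62e-05). It was higher in mOBs in 8 of 8 libraries.

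Bmp4, an osteogenic ligand, was scarce until the mature stage. Levels were 0, 4.75 and 14.7 CPM (lowest, median, highest) in eOBs, 2.74, 4.83 and 12.5 in dOBs and 5.72, 22.9 and 38.0 in mOBs. All 8 libraries rose, but the low mOB libraries (Het S7 and WT S1) lay within the range of dOBs. Its log2 fold change from dOBs to mOBs was 1.98 ± 0.35 (edgeR adjusted p = 0.000103). Bmp7, also an osteogenic ligand, followed with 1.63, 2.77 and 4.44 CPM in dOBs and 3.12, 10.2 and 18.1 in mOBs. Here too 8 of 8 libraries rose, and only the lowest mOB library (Het S7) fell within the range of dOBs. Its log2 fold change was 2.26 ± 0.42 (edgeR adjusted p = 0.000166).

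Bmp2, the osteogenic ligand used clinically, changed least of the ligands that rose. It stood at 19.5, 25.9 and 38.6 CPM in dOBs and at 15.6, 44.1 and 56.6 in mOBs. WT library S1 was lowest in both and the only library of 8 in which Bmp2 did not rise. Its log2 fold change of 1.0 ± 0.33 (edgeR adjusted p = 0.0252) depended on the scaling and on single libraries. With UMI totals in place of TMM factors it was 0.60 (adjusted p = 0.148), without Het S3 0.88 (adjusted p = 0.0862) and without Het S4 0.91 (adjusted p = 0.0796). Between eOBs and mOBs it missed the threshold (0.84 ± 0.36, edgeR adjusted p = 0.0748).

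Bmp5, a ligand known for its role in skeletal patterning and cartilage, ran the other way. It fell from 14.7, 48.2 and 83.6 CPM in eOBs through 4.81, 18.6 and 32.1 in dOBs to 0, 7.50 and 22.6 in mOBs. The order eOBs, dOBs, mOBs held within each of the 8 libraries, although the ranges overlapped across libraries. The log2 fold change was -1.17 ± 0.35 from eOBs to dOBs (edgeR adjusted p = 0.0230) and -1.98 ± 0.38 from eOBs to mOBs (edgeR adjusted p = 9.18e-05). The step from dOBs to mOBs did not pass the test with TMM scaling (-0.81 ± 0.37, edgeR adjusted p = 0.106) and did with UMI totals (-1.16, adjusted p = 0.0156). The first step was no longer called without WT S6 (-1.18, adjusted p = 0.0714) or Het S8 (-1.14, adjusted p = 0.0589), or without the OBs high in Col2a1 (-0.99, adjusted p = 0.101).

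The 250 bases before the transcription start of Bmp4 and of Bmp5 are shown because these ligands moved in opposite directions with maturation. Both are from the RefSeq promoter table of build GRCm38.p6, which held 4 of the 10 members (Bmp4, Bmp5, Grem1 and Fstl1), and are written 5′ to 3′ on the strand of the gene. Capitals mark matches of 6-letter motifs on either strand, the E box (CANNTG) and the GC box (GGGCGG).
Bmp4, minus strand, chr14:46390670-46390919: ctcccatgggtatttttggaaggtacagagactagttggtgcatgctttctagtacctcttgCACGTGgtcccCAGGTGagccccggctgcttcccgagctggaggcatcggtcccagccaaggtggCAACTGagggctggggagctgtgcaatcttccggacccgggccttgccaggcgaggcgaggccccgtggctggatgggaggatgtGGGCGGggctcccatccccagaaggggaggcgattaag
Bmp5, plus strand, chr9:75775115-75775364: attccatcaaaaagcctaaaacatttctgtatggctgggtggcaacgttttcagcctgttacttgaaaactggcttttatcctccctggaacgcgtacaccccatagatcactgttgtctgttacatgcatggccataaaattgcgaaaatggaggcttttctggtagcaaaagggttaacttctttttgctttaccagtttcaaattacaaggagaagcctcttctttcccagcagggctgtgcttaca
The Bmp4 window held 3 E boxes and 1 GC box, with 63.2% G and C and 11 CpG dinucleotides. The Bmp5 window held neither motif, with 42.8% G and C and 4 CpG dinucleotides. Of 32851 promoters of this length, 66.2% held an E box and 32.7% a GC box. The RUNX core TGTGGT, in 14.0% of promoters, was in neither window. In GRCm38 (GENCODE M21) the genes lie at chr14:46383520-46390669 (Bmp4, minus strand) and chr9:75775364-75900310 (Bmp5, plus strand).

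Nog, which encodes noggin, an antagonist of several BMPs, fell between dOBs and mOBs. In eOBs it stood at 4.63, 31.2 and 62.1 CPM (lowest, median, highest), in dOBs at 12.2, 29.8 and 56.8, and in mOBs at 0.700, 5.76 and 13.5. All 8 libraries fell from dOBs to mOBs, and the ranges met only at their edges (WT S1 in dOBs, Het S7 in mOBs). From dOBs to mOBs the log2 fold change was -2.01 ± 0.37 (edgeR adjusted p = 0.000138), and -1.91 ± 0.41 from eOBs to mOBs (edgeR adjusted p = 0.000390). Nog lies on the minus strand of chromosome 11 (GRCm38, chr11:89300638-89302332).

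Chrdl1, encoding a chordin-like BMP antagonist, stood at 14.6, 26.0 and 89.1 CPM in dOBs and at 2.89, 8.98 and 31.2 in mOBs. It fell in 8 of 8 libraries, with overlap among libraries. The log2 fold change was -1.11 ± 0.32 (edgeR adjusted p = 0.0112). From eOBs to mOBs it was -0.96 ± 0.37 (edgeR adjusted p = 0.0410), and that call was lost when any 1 of WT S1 or Het S3, S4, S7 or S8 was left out (adjusted p between 0.0633 and 0.163). Fstl1, a secreted glycoprotein related to follistatin that can bind BMPs, was the most counted member, at 400, 520 and 625 CPM in dOBs and 81.0, 212 and 427 in mOBs. It fell in 8 of 8 libraries, and only Het S7 in mOBs reached the range of dOBs. Its log2 fold change was -0.94 ± 0.25 (edgeR adjusted p = 0.00582).

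Fst, encoding follistatin, rested on few counts. The 8 libraries together held 75 UMIs in eOBs, 137 in dOBs and 16 in mOBs, with 4 mOB libraries at 0. Levels were 2.06, 10.6 and 15.7 CPM in dOBs and 0, 0.312 and 5.79 in mOBs. Fst was lower in mOBs in 7 of 8 libraries, WT S2 being the exception, and the log2 fold change was -2.80 ± 0.68 (edgeR adjusted p = 0.00268). Without WT S2 it was -3.78 (adjusted p = 0.000342). The change from eOBs to mOBs (-2.90 ± 0.76, edgeR adjusted p = 0.00299) rested on WT S1, which held 58 of the 75 eOB UMIs; without it the value was -1.58 (adjusted p = 0.179). Without WT S1 the Fstl1 call from eOBs to mOBs (-0.81 ± 0.25, edgeR adjusted p = 0.0127) was also lost (-0.59, adjusted p = 0.0922).

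Grem1, encoding gremlin, gave 22 UMIs in eOBs, 11 in dOBs and 8 in mOBs over all libraries. In eOBs the WT libraries stood at 8.48, 9.34, 1.56 and 4.29 CPM and the Het libraries at 0, 0, 1.79 and 0. The highest Het value lay above the lowest WT value, and the gene did not pass the filter on low counts in any OB stage. Without that filter the gene was called lower than in eOBs in dOBs (-2.76, edgeR adjusted p = 0.0343) and in mOBs (-2.80, edgeR adjusted p = 0.0180), and DESeq2 called both as well (-3.04 and -3.09, adjusted p = 0.0211 and 0.00753). Of the 22 eOB UMIs behind these values, 11 came from WT S1. Neither tool called a difference between genotypes in an OB stage. In dOBs and mOBs DESeq2 gave Grem1 no adjusted p, so there only edgeR could have called it.

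**Figure D2:**
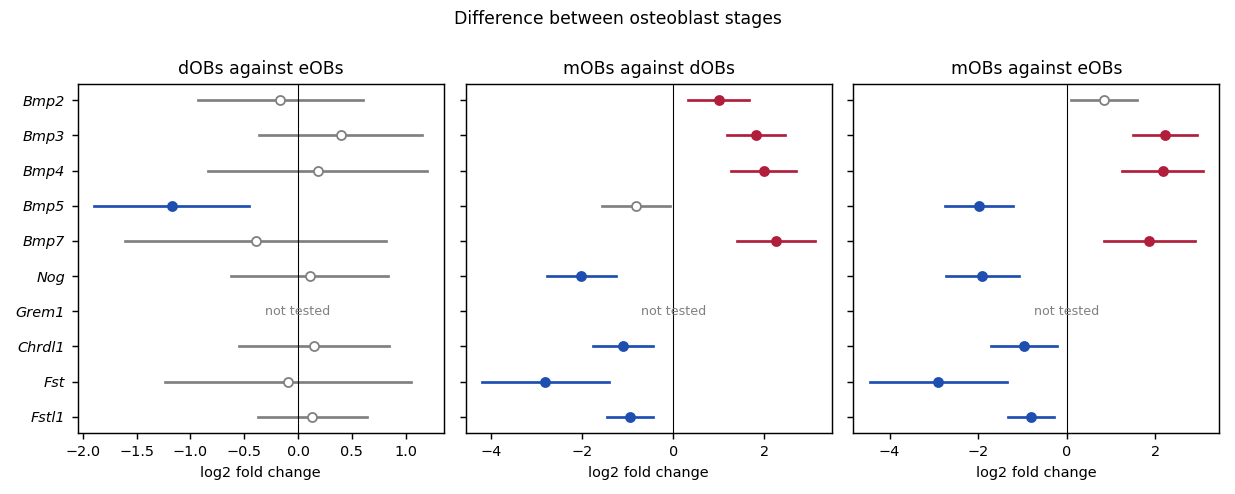
Log2 fold changes (x axis) of the members between OB stages with 95% confidence intervals from edgeR; red and blue filled points passed an adjusted p of 0.05 as higher or lower, open points did not. Bmp2, Bmp3, Bmp4 and Bmp7 lie to the right and Nog, Chrdl1, Fst and Fstl1 to the left in the comparison of mOBs with dOBs.

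Which members were called depended in part on scaling, since the median gene moved by -0.40 on the log2 scale from dOBs to mOBs with UMI totals and by -0.02 with TMM factors. The members were then called 3 higher and 5 lower in place of 4 and 4, and the share of higher calls among all called genes went from 54.5% to 8.20%. Relative to that shift of -0.40, the fold changes without TMM factors of Bmp3 (1.41), Bmp4 (1.59) and Bmp7 (1.87) and of Nog (-2.37), Chrdl1 (-1.47), Fst (-3.20) and Fstl1 (-1.30) kept their signs. From eOBs to mOBs the median gene moved by -0.51 with UMI totals, and the share of higher calls went from 48.8% to 9.51%, with members still called 3 higher and 5 lower. From eOBs to dOBs that share went from 38.9% to 23.0%, with Bmp5 still the only member called.

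From dOBs to mOBs the kit versions gave the same signs for the 9 tested members. The log2 fold changes of Bmp4 and Bmp7 were 2.61 ± 0.52 and 2.85 ± 0.70 (SE, n = 4 libraries) with kit version 3 and 1.33 ± 0.35 and 1.73 ± 0.36 with version 3.1. Those of Nog and Fstl1 were -2.98 ± 0.72 and -1.62 ± 0.37 with version 3 and -1.74 ± 0.34 and -0.51 ± 0.10 with version 3.1. Bmp2, Fst and Bmp5 passed edgeR's test with version 3.1 (adjusted p = 0.00596, 0.0155 and 0.0321) but not with version 3 (adjusted p = 0.0555, 0.159 and 0.159). From eOBs to dOBs Bmp5 was at -1.48 (adjusted p = 0.363) with version 3 and at -0.91 (adjusted p = 0.00271) with version 3.1. From eOBs to mOBs, Chrdl1 and Fstl1 were at -2.40 and -1.62 with version 3 (adjusted p = 0.00632 and 0.00603) and at -0.19 and -0.23 with version 3.1 (adjusted p = 0.711 and 0.102), Bmp2 at 1.81 (adjusted p = 0.0119) and 0.32 (adjusted p = 0.270), and Bmp7 at 3.62 (adjusted p = 0.0132) and 1.07 (adjusted p = 0.0939), while Fst passed with neither (adjusted p = 0.0620 and 0.0976). From eOBs to dOBs the signs differed between versions 3 and 3.1 for Bmp2 (0.65 and -0.42), Bmp7 (0.76 and -0.66), Chrdl1 (-0.66 and 0.68), Fst (-0.68 and 0.58), Nog (-0.19 and 0.28) and Fstl1, which was near 0 with version 3, and none of these was called. Whether the kits differed in these fold changes was not tested. Several lower members were more abundant in mOBs of version 3.1, Fstl1 at 320 ± 76.1 CPM (SD, n = 4 libraries) against 106 ± 39.7, Nog at 10.0 ± 2.86 against 2.20 ± 1.52, Chrdl1 at 24.0 ± 8.52 against 4.43 ± 1.43 and Bmp5 at 16.8 ± 6.09 against 2.77 ± 2.04. Bmp3 was the reverse, at 84.6 ± 6.28 against 118 ± 4.37. The summed chondrocyte markers in mOBs were also higher with version 3.1, at 3118 to 4406 CPM against 1414 to 2324. Kit, software release and composition changed together and cannot be told apart.

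**Figure D3:**
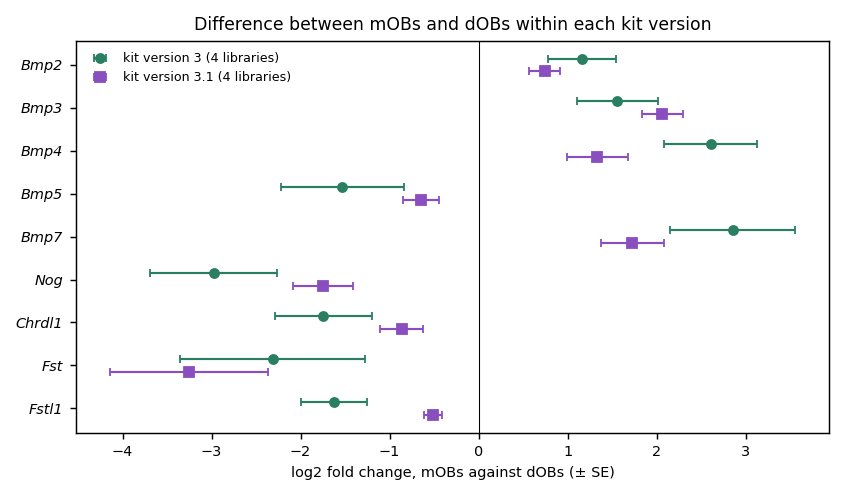
Log2 fold changes from dOBs to mOBs (x axis, ± SE) fitted in the 4 libraries of kit version 3 (circles) and of version 3.1 (squares). Signs match for the 9 tested members, and values lie nearer to 0 with version 3.1 for 7 of them, Bmp3 and Fst being the exceptions.

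Markers of other cell classes moved with stage as well. From eOBs to mOBs, 9 of 10 chondrocyte, 7 of 7 endothelial and 5 of 7 smooth muscle or pericyte markers were lower, with median log2 fold changes of -2.46, -4.59 and -2.96. Summed endothelial markers ran from 16.7 to 1358 CPM in eOBs and from 3.01 to 32.6 in mOBs. From dOBs to mOBs no chondrocyte marker was lower and 1 was higher (median -0.62), and 3 of 7 smooth muscle or pericyte markers were lower (median -1.52). When the OBs with Col2a1 over 1% were left out, 8 members were called from dOBs to mOBs, and none from eOBs to dOBs, where Bmp5 was at -0.99 (adjusted p = 0.101). When the 2046 OBs with at least 3 markers of another class were left out, 4 were called, Bmp4 (2.42), Bmp7 (2.79), Chrdl1 (-2.87) and Fstl1 (-1.49), with Nog at -2.44 (adjusted p = 0.0821), Bmp3 at 1.10 (adjusted p = 0.0566) and Fst at -3.39 (adjusted p = 0.0593). That removal left 1 to 3 cells in the stages of Het S7 and 0 to 2 in those of Het S8, under the minimum of 10. It therefore also dropped the OBs of both Het libraries of version 3.1, and the 7 eOBs left of WT S6. The effect of marker cells and of the lost sums cannot be told apart. The shares of all genes called after these removals are not given here. Beyond these refits, the part of other cells in the OB values was not tested.

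Cell by cell, the members other than Fstl1 were sparse. With each cell thinned to 2000 UMIs, 17.6% of mOBs had a UMI of Bmp3 (mean of 8 libraries, range 7.32% to 28.8%), against 10.3% of dOBs and 4.76% of eOBs. For Nog the shares were 1.04% of mOBs, 6.07% of dOBs and 5.47% of eOBs, and for Fstl1 31.1%, 56.2% and 54.8%. Without thinning the Bmp3 shares were 55.2%, 28.6% and 20.6%, those of Nog 8.26%, 21.7% and 21.0% and those of Fstl1 74.1%, 91.6% and 89.2%. Haematopoietic-like cells, taken as a rough guide to free RNA, had thinned shares of 0.329% for Bmp3, 0.0504% for Nog and 7.45% for Fstl1 (means of 7 libraries). Free RNA, doublets and expression by these cells themselves were not told apart. Median depth per library was 12348 to 21116 UMIs in mOBs, 6571 to 15054 in eOBs and 3054 to 8155 in haematopoietic-like cells. For Fst a UMI was left after thinning in 6 of 376 eOBs (5 of them in WT S1), 13 of 1140 dOBs, 6 of 1065 mOBs (3 of them in WT S2) and 9 of 4699 haematopoietic-like cells, too few to compare shares between stages.

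Other genes of the pathway, taken from fixed lists, changed in both directions from dOBs to mOBs. Of 6 tested other ligands 1 was higher and 2 lower, and of 10 other extracellular modulators 2 were higher and 1 lower. Of 11 receptors and co-receptors 1 was higher and 3 lower, of 8 SMADs and regulators 2 were higher and none lower, and of 9 transcriptional targets none was higher and 4 were lower. Median log2 fold changes were -0.98, -0.17, -0.15, 0.31 and -0.72 in that order, beside -0.81 over the 9 tested members and -0.02 over all genes. The largest rises were those of Sost, encoding the osteocyte protein sclerostin, Bmp8a (2.14 ± 0.29), a BMP ligand, and Bambi (1.34 ± 0.18), a pseudoreceptor that dampens the signal (edgeR adjusted p = 6.85e-10, 2.28e-06 and 1.43e-06). Sost was nearly confined to mOBs among the stages, with 0 UMIs in eOBs, 6 in dOBs and 377 in mOBs, and pooled over libraries it was at least 37.6-fold higher in mOBs than a floor of 3 counts in all eOBs. The largest falls were those of Sostdc1 (-3.25 ± 0.52), a secreted BMP and Wnt antagonist, Rgma (-1.92 ± 0.41), a BMP co-receptor, and Gdf10 (-1.89 ± 0.39), the ligand closest to BMP3 (edgeR adjusted p = 2.56e-05, 0.000657 and 0.000480).

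From eOBs to mOBs, 3 of 9 tested members were higher and 5 lower, and the pathway lists had 1 higher and 3 lower of 6 ligands, 3 and 2 of 10 modulators, 1 and 5 of 11 receptors, 2 and 1 of 8 SMADs and regulators and 0 and 5 of 9 targets. Beside Sost, Bmp8a (1.63 ± 0.32) and Bambi (1.53 ± 0.19) were the largest rises, and Inhbb (-2.93 ± 0.56), an activin subunit, Bmpr1b (-2.78 ± 0.52), a type I BMP receptor, and Bmp6 (-2.76 ± 0.41), a ligand, the largest falls (edgeR adjusted p = 0.000129, 1.61e-07, 8.99e-05, 7.49e-05 and 2.02e-06). From eOBs to dOBs the lists had 1 and 2 of 6, 1 and 1 of 10, 0 and 3 of 11, 0 and 2 of 8 and 1 and 2 of 9. The rises were Fstl3 (1.33 ± 0.46), an activin-binding relative of follistatin, Inhba (1.21 ± 0.39), an activin subunit, and the target Id2 (0.46 ± 0.13). The largest falls were the target Id4 (-1.93 ± 0.33), Inhbb (-1.67 ± 0.46) and Bmpr1b (-1.33 ± 0.42), with edgeR adjusted p of 9.63e-05, 0.0122 and 0.0302.

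Col2a1-high cells differed from OBs (the mean of the stages on the log scale) for 7 of 9 tested members, where 55.7% of all genes were called (29.0% higher, 26.7% lower), so 5 members higher and 2 lower is not far from the share of any gene. With UMI totals the median gene moved by -0.10, and 52.0% of calls being higher became 39.0% (members 4 higher and 3 lower). Bmp5 was the clearest, at 31.5, 63.6 and 119 CPM (lowest, median, highest), with a log2 fold change of 2.11 ± 0.23 (edgeR adjusted p = 1.65e-09). Values of the 4 kit version 3.1 libraries lay above all 4 of version 3. Bmp7 (1.54 ± 0.28), Fstl1 (0.90 ± 0.19), Bmp2 (0.85 ± 0.25) and Chrdl1 (0.67 ± 0.24) were also higher (edgeR adjusted p = 2.18e-05, 0.000168, 0.00408 and 0.0190). The Chrdl1 call was lost without WT S2 (0.48, adjusted p = 0.0555), Het S4 (0.46, adjusted p = 0.136) or Het S7 (0.62, adjusted p = 0.0579), and with UMI totals (0.56, adjusted p = 0.0772). With kit version 3.1 alone Bmp2 (0.22, adjusted p = 0.124) and Chrdl1 (0.11, adjusted p = 0.613) did not pass.

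Fst was close to absent in Col2a1-high cells, at 0, 0.679 and 1.02 CPM, and lower than in OBs (-2.24 ± 0.51, edgeR adjusted p = 0.000348). Bmp3 was lower as well (-1.39 ± 0.27, edgeR adjusted p = 4.30e-05). Bmp4 (-0.28, 95% interval -0.86 to 0.31) and Nog (-0.60, 95% interval -1.15 to -0.06) did not pass the test, with adjusted p of 0.439 and 0.0557. The Nog value passed under 6 of 22 alternatives, among them without WT S1 (-0.71, adjusted p = 0.0257), with UMI totals (-0.75, adjusted p = 0.0270) and with kit version 3.1 alone (-0.51, adjusted p = 0.0472), and it ranged from -0.79 to 0.19 over all 22. Among the pathway lists, 3 of 6 ligands, 4 of 10 modulators, 4 of 11 receptors, 0 of 8 SMADs and regulators and 5 of 9 targets were higher, and 3, 3, 4, 5 and 3 were lower. Bmpr1b (3.94 ± 0.26), the joint ligand Gdf5 (3.30 ± 0.52) and Id4 (2.94 ± 0.19) rose most, and Bmp8a (-5.82 ± 0.35), the target Hey1 (-4.06 ± 0.26) and Inhba (-3.25 ± 0.33) fell most (edgeR adjusted p = 1.32e-14, 1.84e-06, 2.13e-14, 2.46e-15, 1.41e-14 and 2.76e-10).

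**Figure D4:**
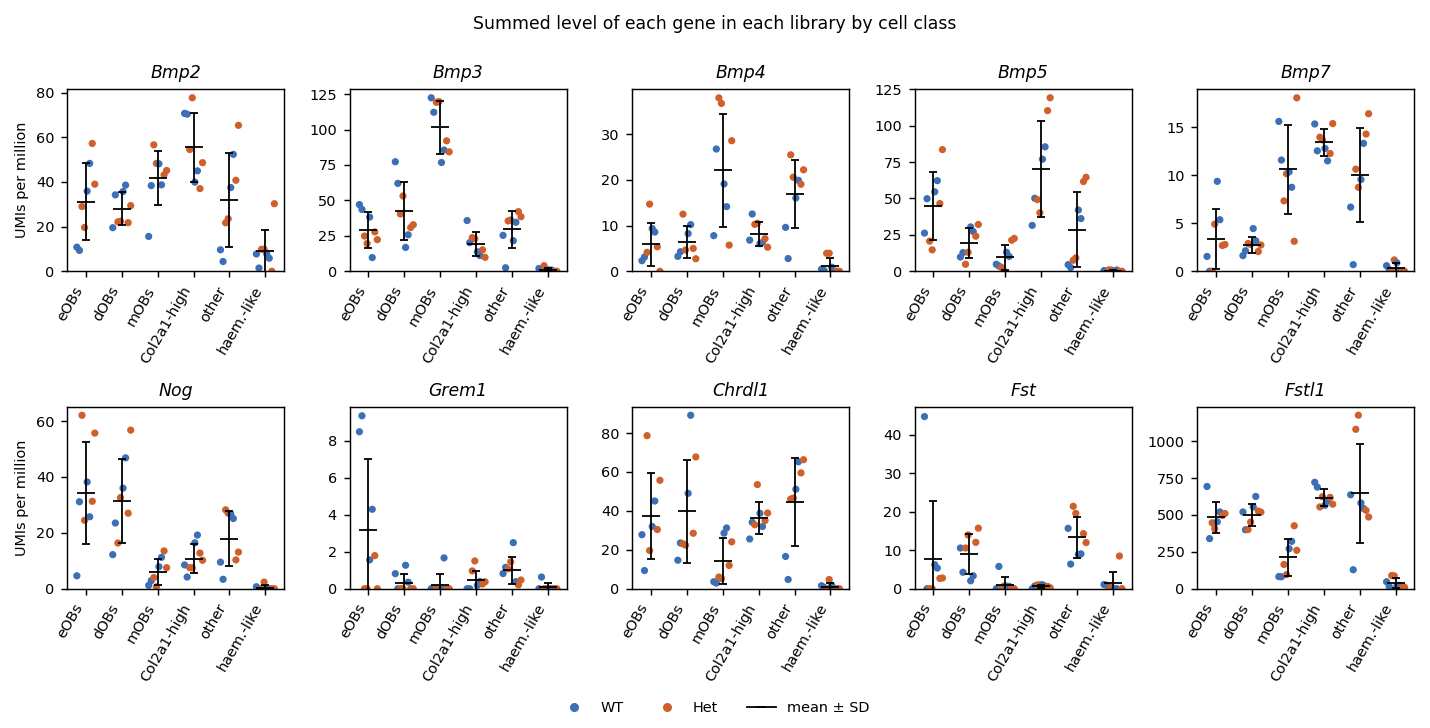
CPM of the 10 genes (y axes) in the 5 cell classes and in haematopoietic-like cells, 1 point per library, blue for WT and orange for Het, with mean and SD over 8 libraries. Bmp3 is highest in mOBs, Bmp5 in Col2a1-high cells, and Fst in cells that are neither is at 6.40 to 21.4 against 0 to 1.02 in Col2a1-high cells.

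The remaining cells, a mixture, differed from OBs for 5 of 9 members, 4 higher and 1 lower, at a background of 48.3% (27.8% higher, 20.5% lower). With UMI totals the median gene moved by 0.15, and 57.5% of calls being higher became 74.5% (members 5 higher, with Chrdl1 added, and 1 lower). In sums over such a mixture, fewer cells of a type and less RNA per cell cannot be told apart. Fst was the highest relative to OBs, at 6.40, 13.2 and 21.4 CPM (1.53 ± 0.36, edgeR adjusted p = 0.000594). Bmp7 (0.81 ± 0.28), Fstl1 (0.65 ± 0.20) and Bmp4 (0.64 ± 0.25) were also higher and Bmp3 lower (-0.87 ± 0.25), with edgeR adjusted p of 0.0165, 0.00735, 0.0386 and 0.00503. Bmp7 was not called without Het S3, WT S6, Het S7 or Het S8 (adjusted p between 0.0511 and 0.0959), Bmp4 not without WT S1, Het S3, WT S6, Het S7 or Het S8 (between 0.0561 and 0.124), and Fstl1 not without Het S3 (0.46, adjusted p = 0.0844) or Het S4 (0.40, adjusted p = 0.105). With kit version 3 and 3.1 respectively, Fst was at 1.18 (adjusted p = 0.103) and 1.94 (adjusted p = 0.00100), Bmp3 at -1.61 (adjusted p = 0.00398) and -0.35 (adjusted p = 0.119), and Fstl1 at 1.16 (adjusted p = 0.00385) and 0.12 (adjusted p = 0.253). Bmp4 was at 0.38 (adjusted p = 0.465) and 0.89 (adjusted p = 0.00533) and Bmp7 at 0.71 (adjusted p = 0.303) and 1.05 (adjusted p = 0.000647), so neither was called with version 3 alone. Bmp2 (-0.97 and 0.07, adjusted p = 0.0182 and 0.665), Bmp5 (-0.72 and 0.57, adjusted p = 0.169 and 0.000752) and Nog (0.46 and -0.51, adjusted p = 0.415 and 0.0578) differed in sign between the kits. Chrdl1 (0.52 ± 0.22, edgeR adjusted p = 0.0536), Bmp5 (0.09), Nog (-0.11) and Bmp2 (-0.36) did not pass. Chrdl1 passed under 11 of 24 alternatives. With kit version 3.1 alone it was called (0.51, adjusted p = 0.0198), and with version 3 alone it was not (0.62, adjusted p = 0.139). In the lists, 3 of 6 ligands, 4 of 10 modulators, 6 of 11 receptors, 0 of 8 SMADs and regulators and 3 of 9 targets were higher, and 2, 2, 3, 3 and 3 were lower. Gdf5 (2.60 ± 0.48), Bmpr1b (1.98 ± 0.26) and the endothelial co-receptor Eng (1.68 ± 0.16) rose most, and Bmp8a (-4.32 ± 0.27), the OB transcription factor Dlx5 (-1.86 ± 0.19) and the procollagen C-proteinase Bmp1 (-1.41 ± 0.19) fell most (edgeR adjusted p = 3.50e-05, 1.01e-07, 1.16e-10, 1.94e-14, 4.88e-10 and 1.68e-07). Markers of haematopoietic cells ran from 1056 to 28230 CPM across libraries in these cells.

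Ordered by mean level over 8 libraries, Bmp3 stood highest in mOBs (101 ± 18.7 CPM, SD), then in dOBs (42.4 ± 20.3), the remaining cells (29.5 ± 12.8), eOBs (29.1 ± 12.8) and Col2a1-high cells (19.0 ± 8.55), with only the first clear of its neighbor by more than their spread. Bmp5 stood highest in Col2a1-high cells (70.4 ± 32.8), then in eOBs (44.8 ± 23.2), the remaining cells (28.5 ± 25.9), dOBs (19.3 ± 10.4) and mOBs (9.78 ± 8.59), each neighbor within the spread. These orders depended on the kit. Bmp5 in the remaining cells was at 5.96 ± 2.97 with version 3, below dOBs (10.1 ± 3.84), and at 51.1 ± 14.1 with version 3.1, above dOBs (28.5 ± 3.56), and for Bmp3 the remaining cells came last with version 3 (24.9 ± 15.7) and second with version 3.1 (34.2 ± 8.95). Nog was highest in eOBs (34.2 ± 18.2) and dOBs (31.4 ± 15.0), which did not differ beyond their spread, then in the remaining cells (17.9 ± 9.89), Col2a1-high cells (10.8 ± 5.04) and mOBs (6.12 ± 4.70). Haematopoietic-like cells held 1.14 ± 1.30 of Bmp3, 0.394 ± 0.424 of Bmp5, 0.385 ± 0.839 of Nog and 37.4 ± 33.6 of Fstl1.

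Het and WT libraries were compared within each class with kit version in the model, to see whether the members changed in OBs that make the mutant chain. No member was called in eOBs (6 tested), dOBs (7), mOBs (8), Col2a1-high cells (9) or the remaining cells (10). Of all genes, 0% of 8118, 0.0101% of 9857, 0.53% of 9623, 0.0913% of 14232 and 0% of 15903 were called. At an unadjusted p under 0.05 the shares of all genes were 3.82%, 7.51%, 11.2%, 7.03% and 23.4%, and DESeq2 called 0.0508%, 0.0103%, 0.754%, 0.263% and 6.68% of the genes it tested, Bmp5 in the remaining cells among them (0.76, adjusted p = 0.000150). With all 8 libraries, the filter on low counts and the cells as defined above, edgeR called no gene of the pathway lists in any class either. With other Col1a1 limits for the stages it called Id3 in mOBs (-0.66, adjusted p = 0.0473). With cells thinned it called Inhbb in the remaining cells (1.59, adjusted p = 0.0471). DESeq2 called Id3, a target gene, in mOBs (-0.61, adjusted p = 0.0117) and 9 of 45 pathway genes in the remaining cells, where Inhbb, an activin subunit, was at 1.41. Without Het S7, edgeR called 3 of 34 in mOBs, Id3 (-0.79), Hey1 (-1.51) and Smad6 (-1.0). Without Het S8 it called 1 of 35, Bmp1 (-0.78). Without the filter it called 5 of 47 in mOBs, Sost (0.89) as higher in Het and Id3, Hey1, Smad6 and Bmp1 as lower. With OBs that had markers of another class left out it called 6 of 24, and Het S7 and S8 were dropped. Sost (1.76) and Bmp8a (1.48) were then higher in Het and Id3, Smad6, Bmp1 and Nbl1 lower. The shares of all genes called in these fits are not given here. With kit version 3 alone edgeR called 2 of 21 in eOBs, 5 of 29 in mOBs and 24 of 44 in the remaining cells. Of all genes, 5.81%, 5.26% and 31.4% were called there. Whether the genotype effect differed between mOBs and eOBs, or between Col2a1-high cells and OBs, was tested directly, with 0 of 9 members called in either (backgrounds of 0.00822% and 0%, or 4.98% and 4.38% at an unadjusted p under 0.05, and 0.0197% and 0% with DESeq2).

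**Figure D5:**
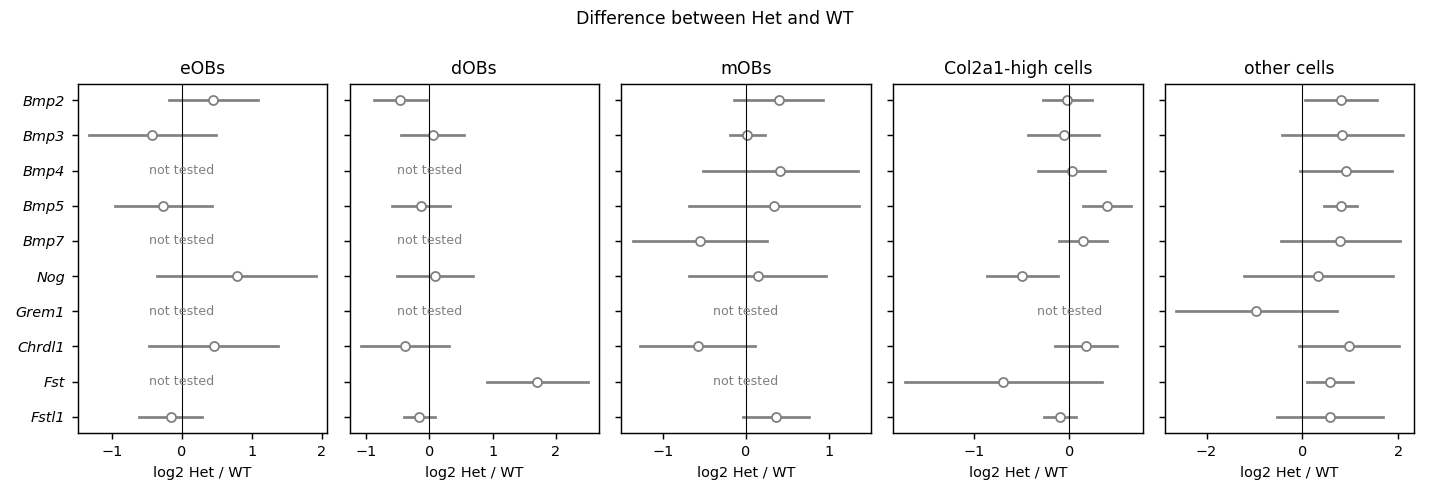
Log2 fold changes of Het against WT (x axis) of the members in each cell class, with 95% confidence intervals from edgeR; open points did not pass an adjusted p of 0.05, and untested genes are marked. No member passed in any class, and the interval of Bmp3 in mOBs is the narrowest among the members there.

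Bmp3 had the narrowest interval in mOBs. It stood at 122, 112, 76.7 and 85.5 CPM in WT and at 119, 120, 92.0 and 84.2 in Het. The libraries separated by kit and not by genotype, and the log2 fold change of Het against WT was 0.01 (95% interval -0.20 to 0.23, edgeR adjusted p = 0.993). Nog in mOBs was at 1.2, 2.89, 7.87 and 11.2 in WT and at 4.0, 0.700, 13.5 and 7.52 in Het, a log2 fold change of 0.14 (95% interval -0.68 to 0.97). Bmp4 stood at 7.80, 26.8, 19.1 and 14.2 in WT mOBs and at 38.0, 36.8, 5.72 and 28.6 in Het, overlapping because of Het S7 (0.41, 95% interval -0.52 to 1.35, edgeR adjusted p = 0.791). With OBs that had markers of another class left out, Bmp4 was called (1.69, adjusted p = 0.00433), but Het S7 and S8 then kept 3 and 2 mOBs, under the minimum of 10, so that both were dropped and Het was represented by S3 and S4 alone. Within kit versions 3 and 3.1 Bmp4 stood at 1.07 and -0.47. Fstl1 (0.36, interval -0.04 to 0.76) and Chrdl1 (-0.58, interval -1.27 to 0.11) missed the threshold too, with adjusted p of 0.502 and 0.539. In mOBs the smooth muscle genes Acta2 and Tagln were called higher in Het (1.55 and 1.77, edgeR adjusted p = 0.0349 and 0.0207), and Bglap, the OB gene for osteocalcin, lower (-2.08, edgeR adjusted p = 0.0434). The other 8 of the 9 OB markers were not called (median of the 9 at 0.14), nor were any of 10 chondrocyte markers (median 0.80). The 7 smooth muscle or pericyte markers summed to 74.4 to 292 CPM in WT mOBs and 239 to 730 CPM in Het mOBs, and their part in the member values was not tested.

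Among members that passed the filter on low counts, Fst in dOBs had the largest difference between genotypes. Its levels were 10.57, 4.28, 2.06 and 3.35 CPM in WT and 10.58, 14.0, 12.0 and 15.7 in Het. Each Het library lay above each WT library, though WT S1 (13 UMIs) and Het S3 (11 UMIs) were all but equal, and such separation was seen for 1.68% of genes. Het exceeded WT by a log2 fold change of 1.71 ± 0.36 (95% interval 0.91 to 2.50), which did not pass adjustment over all genes (edgeR adjusted p = 0.503). The value was 0.52 ± 0.51 with kit version 3 and 2.29 ± 0.36 with version 3.1 (SE, 2 libraries per genotype in each). Without the filter on low counts edgeR called Fst as higher in Het dOBs (1.65, adjusted p = 0.000148) and as lower in Het eOBs (-2.47, adjusted p = 0.0321), where WT S1 held 58 of the 75 UMIs. In that setting it called 0 of 45, 1 of 47 and 5 of 47 genes of the pathway lists in eOBs, dOBs and mOBs, against 0 with the filter. The shares of all genes called without the filter are not given here. Bmp2 in dOBs had a log2 fold change of -0.46 ± 0.19 (edgeR adjusted p = 0.645).

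In Col2a1-high cells Bmp5 was at 31.5, 50.2, 77.0 and 85.5 CPM in WT and 49.2, 40.2, 110 and 119 in Het. Het values lay above WT with kit version 3.1 and between them with version 3, for a log2 fold change of 0.40 ± 0.12 (edgeR adjusted p = 0.495). Nog in these cells had a log2 fold change of -0.50 ± 0.17 (edgeR adjusted p = 0.585), at 0.29 with kit version 3 and -0.65 with version 3.1. In the remaining cells 9 of 10 members had positive values of Het against WT (0.33 to 0.97) and Grem1 a negative one (-0.96). Bmp3 there stood at 25.3, 2.46, 21.5 and 34.6 in WT and 35.5, 36.1, 42.1 and 38.5 in Het, without overlap, which held for 5.15% of genes. The kits gave different values, Nog being at 1.83 with version 3 and -1.20 with version 3.1, Fstl1 at 1.33 and -0.19, and Chrdl1 at 1.86 and 0.07. In the 4 libraries of version 3 alone edgeR called 4 of 10 members higher in Het, where 31.4% of all genes were called: Bmp2 (1.40, adjusted p = 0.0260), Nog (adjusted p = 0.0265), Chrdl1 (adjusted p = 0.0379) and Bmp5 (0.93, adjusted p = 0.0470). With version 3.1 none was called. WT library S2 was the lowest of 8 for each of these 9 members, and WT S1 and S2 were also the libraries richest in haematopoietic-like cells (51.0% and 42.2%). With those cells left out and both kits together, the log2 differences of Bmp2, Bmp3, Bmp4, Bmp5 and Bmp7 went from 0.81, 0.83, 0.91, 0.80 and 0.79 to 0.63, 0.45, 0.51, 0.43 and 0.41. Those of Chrdl1, Fst, Fstl1 and Nog went from 0.97, 0.58, 0.58 and 0.33 to 0.60, 0.19, 0.20 and -0.06. The part of the haematopoietic-like cells in these differences was not tested.

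Genes whose pattern was most like that of a member were found by Pearson's r of log2(CPM + 1) over the 40 library and class sums, among 6856 genes with a mean of at least 20 CPM. The sums share libraries, kit and composition, so r is given only as a description. Bmp5 was most like Tle1 (0.910) and Ctdspl (0.904), Chrdl1 like Tpst1 (0.894) and Ogn (0.888), and Fstl1 like Rras (0.887) and Serpinb6a (0.883). Bmp3 was most like Fabp3 (0.853) and Nupr1 (0.851), Nog like Fmr1 (0.840) and Agk (0.837), and Bmp2 like Itga10 (0.820) and Cd109 (0.817). Values were lower for Bmp7 with Atp2b1 (0.780) and Tob1 (0.777), Fst with Mgat4b (0.720) and Rgs5 (0.713), and Bmp4 with Jam2 (0.687) and Ndufa4l2 (0.670).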

How the data were processed

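UMI counts of each gene in each cell were deposited without normalization. Per the submitters' processing notes they came from Cell Ranger (5.0.0 with kit version 3, 6.0.1 with version 3.1) and build mm10. Of the gene identifiers, 30934 of 31053 (99.6%) were in GENCODE M21 (GRCm38).

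UMIs were summed per library and class, with OBs assigned first. Genes passing filterByExpr were tested with edgeR 4.0.16 (TMM, glmQLFit, glmQLFTest; limma 3.58.1, R 4.3.3), with kit and genotype as terms within a class, or library and class between classes, with Benjamini-Hochberg adjustment over all genes tested. DESeq2 1.42.0 was an alternative. Python 3.11.15 summed the cells. Scripts were tested on simulated data. Doublets were kept, and OBs with at least 3 markers of another class were left out as an alternative. Haematopoietic-like cells had at least 3 of 11 haematopoietic markers and under 3 of each other class.

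The members and lists were chosen with earlier results of these data known. The text names all members, the 3 list genes per direction with the largest called change between classes, and 2 most alike genes per member. Of the list genes called between genotypes only under an alternative, it names a part. Acta2, Tagln and Bglap were named after their values were seen. Replicate numbers did not pair the libraries (correlations of deviations from -0.221 to 0.112).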

Additional observations from a re-analysis of the deposited data

Results flagged for a closer look

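In 5 of 93 groups of 4 libraries, 1 library lay far from the other 3 by Dixon's test, and chance alone gives about 1 in 20. In dOBs, Het S8 stood at 29.4 CPM of Bmp2 (next 22.4) and at 67.7 of Chrdl1 (next 28.5). In Col2a1-high cells, WT S2 stood at 12.5 of Bmp4 (next 6.81). Fst was high in eOBs of WT S1 at 44.7 (next 6.24), where 23.5% of 81 cells had a UMI, and in mOBs of WT S2 at 5.79 (next 0.675), from 8 UMIs. The 2 Fst values rest on few counts.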

How the results depend on the processing

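Of the values of single members under the alternatives, 2274 counted as unchanged, 73 lost and 35 gained a call, and no called value turned. Values called in neither fit could change sign and still count as unchanged. For Het against WT, fits within 1 kit or without kit in the model were judged by size of shift alone. There 12 values moved by more than their spread, and gained calls were not counted. Counts of members called between genotypes stayed at 0 when 1 library was left out, with UMI totals and with collagen genes left out. They became 1 without the filter on low counts in eOBs and in dOBs, 1 in mOBs without OBs that had markers of another class (5 tested), where Het S7 and S8 were dropped, 1 in the remaining cells with DESeq2, and 4 there with kit version 3 alone, with 0 in the other 9 fits of a class within 1 kit. The replicate block gave 0 in all 5 classes, as did the crossed pairing, which was added after seeing the data, as were the fits with UMI totals and within each kit between classes. From eOBs to dOBs (1) the count was 2 with DESeq2, 2 without the filter, 3 with looser OB selection, and 0 without OBs high in Col2a1, without OBs that had markers of another class, at 5% mitochondrial UMIs, with cells thinned (5 tested) or with kit version 3 alone. From dOBs to mOBs (8) it was 4 without OBs that had markers of another class and 1 with cells thinned (5 tested). From eOBs to mOBs (8) it was 2 with cells thinned and 4 with kit version 3.1 alone. In the remaining cells against OBs (5) it was 3 with looser selection, 3 with cells thinned and 3 with kit version 3 alone. Leaving out 1 library gave 0 to 1, 7 to 8, 5 to 8 (5 without WT S1), 6 to 8 for Col2a1-high cells and 2 to 6 for the remaining cells (2 without Het S3, 3 without Het S7 or Het S8). Thinning leaves fewer UMIs and fewer genes tested; for the rest the cause was not tested. In eOBs depth limits Grem1, Fst, Bmp4 and Bmp7 most, and Grem1 and Fst had still fewer UMIs in mOBs.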
